A study of Mus musculus with 9 samples.

Results

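The aminoacyl-tRNA synthetases are the enzymes that join each amino acid to its transfer RNA. They were measured here in 2 sets, the cytosolic enzymes and the mitochondrial enzymes, whose symbols end in 2. Of 36 genes listed by symbol, 34 had a probe set with that single symbol in the platform annotation, 18 cytosolic and 16 mitochondrial. The other two were not analysed here. Where a gene had several probe sets, the one with the highest mean over all 9 arrays stood for it. All 34 lay above the filter on dim probe sets, among 12828 genes tested.

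The data were array signals from the total RNA of pre-B cells of the mouse, the stage of B lymphocyte development that is about to rearrange its light-chain genes. All cells carried null alleles of both IRF4 and IRF8, transcription factors that drive light-chain rearrangement. The 3 groups of 3 arrays each were cells in low IL-7 (IL7lo), cells to which IRF4 was returned in high IL-7 (+IRF4) and cells in high IL-7 alone (IL7hi). IL-7 is the cytokine on which the growth and survival of these precursors depend. The labels give its amounts as 0.25 and 5 ng but disagree on the volume, so no concentration is stated. No group was handled as the +IRF4 cells were but without IRF4, so IRF4 and the means of putting it back cannot be told apart. Whether replicate arrays came from separate cultures or animals is not said in the labels. All p-values therefore measure only the spread between arrays, which may be technical, and precision is limited by the number of arrays.

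Each synthetase recognises 1 amino acid and the transfer RNAs that carry it, and the charged transfer RNA then enters the ribosome through an elongation factor. The cytosolic and mitochondrial enzymes are mostly products of separate nuclear genes, and the mitochondrial enzymes are imported to serve the small set of proteins translated inside the organelle. Gars and Kars are exceptions, since each gene encodes both the cytosolic and the mitochondrial enzyme, and Eprs encodes a single chain with both glutamate and proline activity. Several cytosolic synthetases are known targets of ATF4, the transcription factor of the amino acid response, which binds a composite C/EBP-ATF element.

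Promoter sequence was available from RefSeq (GRCm38.p6) for 25 of the 34 genes, 11 cytosolic and 14 mitochondrial, covering 250 bases before to 50 after the start of the gene. On both strands the core letters of the C/EBP-ATF element, TGATGNAA, were found in 5 of the 11 cytosolic promoters (45.5%) and in 0 of the 14 mitochondrial promoters, against 2.28% of the 10362 promoters of tested genes and 4.06% of all 27025 promoters in the table. The matches are printed because this was the motif whose share differed most between the sets of promoters, each in a window of 24 bases read on the strand that holds the letters, with the match in capitals. Aars held 2 of them, at chr8:111033722-111033745 and chr8:111033843-111033866, both on the minus strand. The windows of Gars, at chr6:55037963-55037986, and Iars, at chr13:49682129-49682152, were also on the minus strand. Those of Tars, at chr15:11399658-11399681, and Yars, at chr4:129189898-129189921, were on the plus strand.
Aars: ggctcggcTGATGCAAtgctcaag
Aars: gagcgctcTGATGAAAagtgaccc
Gars: ccggtgcaTGATGAAAtagcgcag
Iars: tctggaggTGATGCAAtactgaca
Tars: taaccagcTGATGCAAcgggactc
Yars: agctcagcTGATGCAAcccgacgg
In Aars, Iars, Tars and Yars 1 match had C at the free letter, and the other match of Aars and that of Gars had A. Counted from the start of the gene, the first base of the match lay at -112 and 10 in Aars, -30 in Gars, 8 in Iars, -15 in Tars and 4 in Yars.

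The E-box CACGTG, which MYC and other factors of its family bind, was found in 4 of the 11 cytosolic promoters (36.4%: Aars, Farsb, Iars and Tars) and in 1 of the 14 mitochondrial promoters (7.14%: Ears2), against 10.0% for the tested genes. GCGCANGCG, the letters bound by NRF1, a regulator of nuclear genes for mitochondria, stood in 27.3% of the cytosolic and 28.6% of the mitochondrial promoters, against 13% for the tested genes. CCGGAAG, bound by ETS factors such as GABPA, stood in 36.4% and 28.6%, against 17.3%. No matches of different motifs overlapped in these promoters. The 150 bases before the start of the gene are shown for Aars (chr8:111033692-111033841), for Qars (chr9:108507855-108508004), whose signal was not called changed in any comparison, and for Yars2 (chr16:16302815-16302964), the mitochondrial gene with the largest fall in low IL-7, all on the plus strand.
Aars: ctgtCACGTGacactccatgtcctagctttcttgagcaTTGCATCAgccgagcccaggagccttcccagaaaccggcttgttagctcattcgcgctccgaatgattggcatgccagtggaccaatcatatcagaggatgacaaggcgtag
Qars: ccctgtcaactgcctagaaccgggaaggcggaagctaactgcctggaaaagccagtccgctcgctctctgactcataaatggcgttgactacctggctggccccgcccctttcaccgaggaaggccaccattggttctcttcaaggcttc
Yars2: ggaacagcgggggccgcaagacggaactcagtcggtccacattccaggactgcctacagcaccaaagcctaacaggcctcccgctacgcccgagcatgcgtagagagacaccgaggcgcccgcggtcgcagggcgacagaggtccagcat
Capitals in Aars mark the E-box and, further on, the C/EBP-ATF letters as they read on this strand. Neither Qars nor Yars2 held any of the 4 motifs in its window. A match describes these letters only, and binding was not measured.

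The arrays had median intensities of 139.727 to 151.27, which differ by at most 0.11 as log2 values, and arrays of a group correlated at 0.976 to 0.995. The control signal for 18S ribosomal RNA was 6.41 in +IRF4 replicate 3 and 6.53 in high IL-7 replicate 1, against 7.70 to 8.49 in the other 7. Of 8 pre-B cell markers tested, 5 were called higher in low IL-7 and 1 in +IRF4 than in high IL-7, and 0 lower in either. Of all genes tested, 17.8% were called higher in low IL-7 and 1.89% in +IRF4. The mean signal of the markers was 12.80 to 12.86 in low IL-7, 12.33 to 12.43 with IRF4 and 12.16 to 12.48 in high IL-7. The dimmer probe set of Irf4 rose by 2.45 (SE 0.28) in the +IRF4 arrays against high IL-7. The brighter one had 12.81 to 12.96 in low IL-7, 11.86 to 12.06 in +IRF4 and 12.21 to 12.50 in high IL-7, although the cells are labelled null. It fell by 0.40 with IRF4 (limma adjusted p = 0.0438) and rose by 0.57 in low IL-7, and the labels do not say whether it lies in the deleted part of the gene. Both probe sets of Irf8, also labelled null, had signals of 10.95 to 12.12 over all arrays. In low IL-7 against high IL-7, 1 of them rose by 0.43 (limma adjusted p = 0.0433). The other stood at 0.47 and was not called (limma adjusted p = 0.122). All levels here are log2(intensity + 16), all changes are differences on that scale, which understates the change of dim genes, and a gene was called at an adjusted p under 0.05 in limma over all tested genes.

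The low and high IL-7 arrays were compared to ask which genes follow the cytokine. The cytosolic synthetases fell almost throughout the set: 17 of 18 were called lower in low IL-7 and 0 higher, and 13 of the 17 were lower by at least 2-fold, against 4.11% of all genes tested. Their median was -1.16, with a range of -1.82 to -0.05 over the 18. The mitochondrial synthetases divided, with 8 of 16 called lower and 0 higher, 1 of them by at least 2-fold, a median of -0.36 and a range of -1.14 to 0.05. Of all genes tested, 19.6% were called lower and 17.8% higher, with a median of 0.02. At an unadjusted p under 0.05 the number higher was also 0 in both sets, against 22.3% of all genes tested. Every low IL-7 array lay below every high IL-7 array for 17 of the 18 cytosolic and 11 of the 16 mitochondrial genes, against 24.8% of all genes tested. The cytosolic set was also the brighter, with mean intensities of 572 to 3854 against 160 to 1245 for the mitochondrial set. Signal level and set thus go together, and the part of signal level in the contrast was not tested. The map of every array shows the contrast between the sets.

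**Figure D1:**
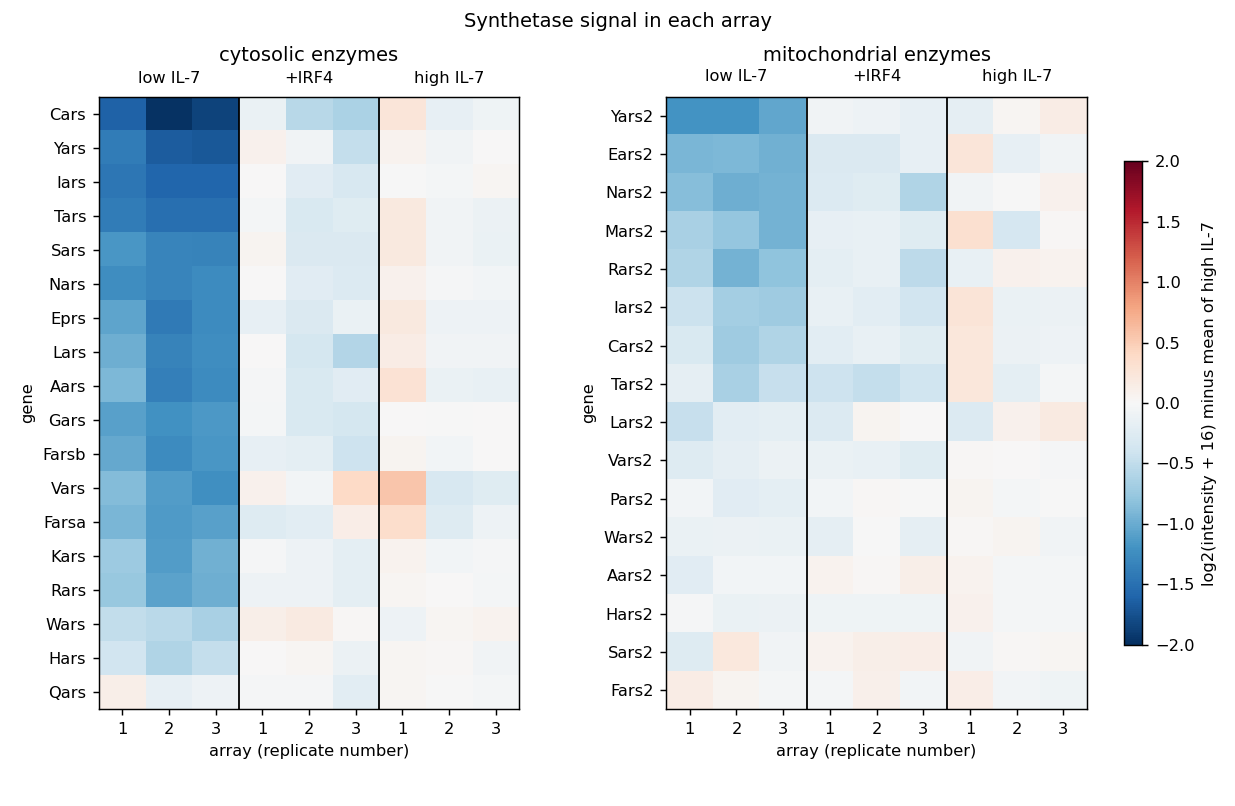
Signal of the 34 synthetase genes in each of the 9 arrays, as log2(intensity + 16) minus the gene's mean in high IL-7, with cytosolic enzymes on the left and mitochondrial enzymes on the right, genes sorted by their change in low IL-7 and arrays labelled by replicate number. Blue is below and red above the high IL-7 mean. The low IL-7 columns are blue for 17 of 18 cytosolic genes and for the upper part of the mitochondrial set, paler where the fall is smaller.

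The cytosolic genes with the largest falls charge cysteine, tyrosine, isoleucine, threonine and serine. Cars, the cysteine enzyme, had signals of 8.13, 7.77 and 7.91 in low IL-7, 9.63, 9.21 and 9.12 in +IRF4, and 10.01, 9.60 and 9.67 in high IL-7. The low IL-7 arrays lay apart from all others, and Cars fell by 1.82 (SE 0.16, 3.53-fold, limma adjusted p = 1.03e-05). A dimmer probe set of Cars stood at -0.16 (adjusted p = 0.199), so the size of this fall rests on 1 probe set. Yars, the tyrosine enzyme, had 9.0, 8.74 and 8.70 in low IL-7, 10.49, 10.32 and 9.92 in +IRF4, and 10.46, 10.32 and 10.40 in high IL-7. It fell by 1.58 (SE 0.14, 3.0-fold, limma adjusted p = 1.23e-05), with no overlap between low IL-7 and either other group.

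Iars, which charges isoleucine within the multisynthetase complex, had 10.75, 10.60 and 10.61 in low IL-7, 12.21, 11.97 and 11.87 in +IRF4, and 12.18, 12.16 and 12.24 in high IL-7. It fell by 1.54 (SE 0.09, 2.91-fold) with the smallest adjusted p of the set in limma, 1.07e-06. That probe set can match several transcripts, and another probe set of Iars stood at -1.87. Tars, the threonine enzyme, had 10.08, 9.96 and 9.96 in low IL-7, 11.44, 11.18 and 11.24 in +IRF4, and 11.67, 11.40 and 11.36 in high IL-7. It fell by 1.47 (SE 0.10, 2.78-fold, limma adjusted p = 2.97e-06), again with every low IL-7 array below all others. Sars, the serine enzyme, had 9.65, 9.49 and 9.48 in low IL-7, 10.86, 10.52 and 10.52 in +IRF4, and 11.02, 10.74 and 10.69 in high IL-7. Its fall of 1.28 (SE 0.12, 2.42-fold, limma adjusted p = 1.93e-05) was matched by another probe set at -1.39.

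A further 7 cytosolic genes fell by 1.07 to 1.27: Nars (asparagine), Eprs (glutamate and proline), Lars (leucine), Aars (alanine), Gars (glycine), Farsb (the beta chain of the phenylalanine enzyme) and Vars (valine). Vars was the most variable of them, with 10.26, 10.01 and 9.89 in low IL-7, 11.21, 11.07 and 11.52 in +IRF4, and 11.67, 10.80 and 10.88 in high IL-7. Its highest +IRF4 and high IL-7 values came from the pair of arrays with the low 18S control signal, and its fall was 1.07 (SE 0.21, limma adjusted p = 0.00262). Farsa, the alpha chain of the phenylalanine enzyme, was also highest in those arrays and fell by 1.04 (SE 0.16), while its 3 dimmer probe sets stood at 0.23, 0.00 and -0.17 and were not called. The part of the 18S difference in these values was not tested. Without both arrays, 17 cytosolic and 8 mitochondrial genes were again called lower, with Lars2 in place of Tars2. The probe sets that stood for Eprs and Farsb can match several transcripts.

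The smallest changes in the cytosolic set were those of Kars, Rars, Wars, Hars and Qars. Kars, the lysine enzyme, fell by 0.94 (SE 0.10). Rars, the arginine enzyme of the multisynthetase complex, had 10.57, 10.25 and 10.34 in low IL-7, 11.22, 11.22 and 11.12 in +IRF4, and 11.36, 11.32 and 11.27 in high IL-7, a fall of 0.93 (SE 0.09, limma adjusted p = 1.93e-05). Wars, the tryptophan enzyme, which interferon is known to induce, had 9.79, 9.74 and 9.64 in low IL-7, 10.40, 10.46 and 10.31 in +IRF4, and 10.18, 10.33 and 10.35 in high IL-7. Wars fell by 0.57 (SE 0.09, 1.48-fold, limma adjusted p = 0.000506) by its brightest probe set, which can match several transcripts, and its other 3 probe sets stood at -0.87, -0.70 and -1.02. Hars, the histidine enzyme, had 10.68, 10.45 and 10.58 in low IL-7, 11.07, 11.10 and 10.95 in +IRF4, and 11.10, 11.08 and 11.00 in high IL-7. Its fall was 0.49 (SE 0.08, 1.40-fold, limma adjusted p = 0.000957), and its low IL-7 arrays lay below all others.

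Qars, the glutamine enzyme, was the exception among the cytosolic genes. It had 11.58, 11.29 and 11.37 in low IL-7, 11.44, 11.45 and 11.26 in +IRF4, and 11.51, 11.47 and 11.42 in high IL-7. The groups overlapped, and the change was -0.05 (SE 0.09, 95% interval -0.25 to 0.14, limma adjusted p = 0.688). That interval leaves out the falls of all 17 other cytosolic genes. Its other probe sets above the filter, which can match several transcripts, stood at 0.13 and 0.15, and neither was called.

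Other groupings of the cytosolic enzymes showed smaller contrasts. The multisynthetase complex is an assembly that holds several synthetases on 3 scaffold proteins. Of its 6 synthetases tested, 5 fell, all but Qars, with a median of -1.06, and of the 12 outside it all 12 fell, with a median of -1.16. By catalytic fold, 7 of 8 class I enzymes fell, with a median of -1.13, and 9 of 9 class II enzymes, with a median of -1.15, Eprs holding both kinds. All 3 scaffold genes fell, against 19.6% of all genes tested: Aimp2 by 1.32 (SE 0.10), Eef1e1 by 1.22 (SE 0.07) and Aimp1 by 0.34 (SE 0.07). Aimp2 had 10.20, 10.02 and 9.88 in low IL-7, 11.15, 11.21 and 11.30 in +IRF4, and 11.51, 11.24 and 11.32 in high IL-7.

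Among the mitochondrial synthetases the largest fall was that of Yars2, the tyrosine enzyme. It had 8.13, 8.13 and 8.29 in low IL-7, 9.26, 9.23 and 9.17 in +IRF4, and 9.15, 9.36 and 9.48 in high IL-7. Yars2 fell by 1.14 (SE 0.10, 2.21-fold, limma adjusted p = 1.13e-05) by a probe set that can match several transcripts, and its other probe set stood at -1.56. Ears2, which charges glutamate and in mitochondria also loads it onto the glutamine transfer RNA, had 6.89, 6.90 and 6.84 in low IL-7, 7.51, 7.51 and 7.63 in +IRF4, and 8.04, 7.63 and 7.72 in high IL-7. The low IL-7 arrays lay below all others, and Ears2 fell by 0.92 (SE 0.10, 1.90-fold, limma adjusted p = 6.08e-05). Its 3 other probe sets were below the filter.

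Nars2, the asparagine enzyme, had 8.21, 8.09 and 8.12 in low IL-7, 8.79, 8.82 and 8.47 in +IRF4, and 8.99, 9.06 and 9.15 in high IL-7. It fell by 0.92 (SE 0.11, limma adjusted p = 6.34e-05), and the +IRF4 arrays lay between the other groups without overlap. Mars2, the methionine enzyme, had 7.52, 7.39 and 7.22 in low IL-7, 8.00, 8.02 and 7.92 in +IRF4, and 8.48, 7.83 and 8.18 in high IL-7. Its fall of 0.79 (SE 0.15, limma adjusted p = 0.0017) was seen with its brighter probe set, and the dimmer one stood at 0.03 (adjusted p = 0.848). Rars2, the arginine enzyme, had 9.45, 9.11 and 9.25 in low IL-7, 9.86, 9.91 and 9.54 in +IRF4, and 9.91, 10.13 and 10.12 in high IL-7, a fall of 0.79 (SE 0.13, limma adjusted p = 0.000733). Iars2 fell by 0.61, Cars2 by 0.54 and Tars2 by 0.43 (limma adjusted p = 0.0289). The call of Tars2 was lost when replicate 2 or 3 of low IL-7, or replicate 1 or 3 of high IL-7, was left out, and its dimmer probe set stood at -0.14 (adjusted p = 0.437).

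The other 8 mitochondrial genes were not called. Sars2, the serine enzyme, had 9.02, 9.48 and 9.19 in low IL-7, 9.33, 9.39 and 9.41 in +IRF4, and 9.20, 9.30 and 9.31 in high IL-7. The low IL-7 arrays spanned the others, and the change was -0.04 (SE 0.11, 95% interval -0.29 to 0.22). Fars2, the phenylalanine enzyme, had 9.49, 9.40 and 9.31 in low IL-7, 9.31, 9.45 and 9.29 in +IRF4, and 9.48, 9.29 and 9.26 in high IL-7, a change of 0.05 (SE 0.10, 95% interval -0.16 to 0.27). Hars2, the histidine enzyme, had 9.24, 9.11 and 9.13 in low IL-7, 9.17, 9.16 and 9.17 in +IRF4, and 9.34, 9.22 and 9.21 in high IL-7. Its change was -0.09 (SE 0.08, 95% interval -0.27 to 0.09), with overlapping arrays. Aars2, the alanine enzyme, had 8.45, 8.63 and 8.63 in low IL-7, 8.74, 8.70 and 8.80 in +IRF4, and 8.76, 8.64 and 8.65 in high IL-7. Its low IL-7 arrays lay just under the rest, and the change was -0.11 (SE 0.09, 95% interval -0.30 to 0.08). Lars2 (-0.29, adjusted p = 0.141), Vars2 (-0.19, adjusted p = 0.0933), Pars2 (-0.16) and Wars2 (-0.13) made up the rest in limma, and Lars2 was called with a block for the replicate number.

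The sizes of the called falls overlapped between the sets. The 5 mitochondrial genes with the largest falls had changes between -1.14 and -0.79, inside the span of the 17 cytosolic falls, which ran from -1.82 for Cars to -0.49 for Hars.

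**Figure D2:**
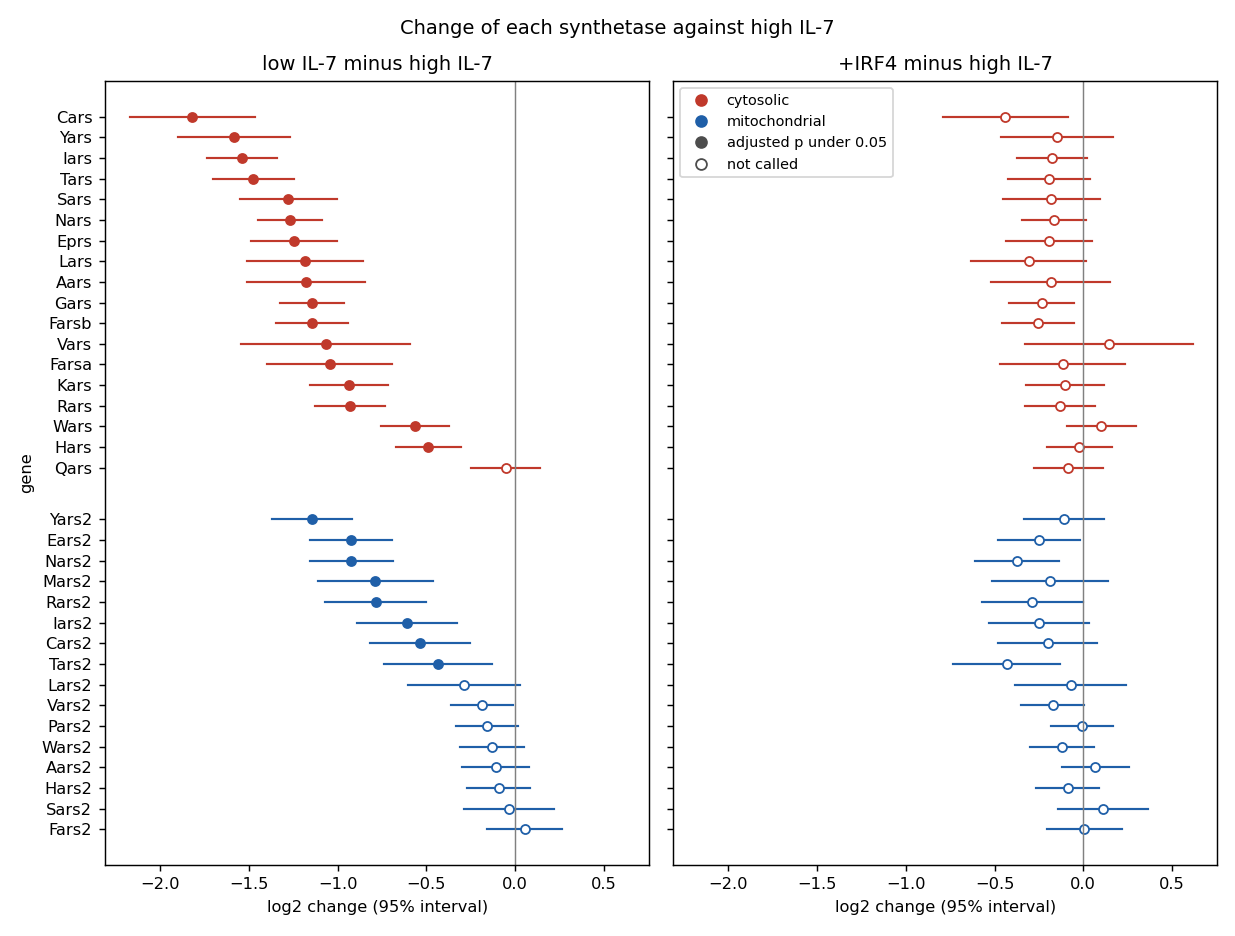
Log2 change of each of the 34 synthetase genes with its 95% interval, in low IL-7 minus high IL-7 on the left and +IRF4 minus high IL-7 on the right, with cytosolic genes in red above mitochondrial genes in blue. Filled points passed limma's adjusted p of 0.05: 17 cytosolic and 8 mitochondrial points on the left, and 0 on the right.

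For 15 amino acids both compartments' enzymes were measured, which allows them to be set side by side, with Eprs standing for both glutamate and proline. Farsa stood for phenylalanine. Farsb was not paired, and its next brightest probe set stood at -1.09 in low IL-7 against high IL-7. In low IL-7 the cytosolic gene changed further below high IL-7 than its mitochondrial partner in 15 of 15 pairs. In all 15 the per-array difference between the partners did not overlap between low and high IL-7. The share without overlap was not computed over pairs of other genes, so the pair counts here and below have no like share beside them. For single genes, every low IL-7 array lay below every high IL-7 array in 24.8% of all genes tested. A 2-sided exact permutation test of 3 against 3 arrays cannot go below 0.1, so that test cannot bring a single pair under 0.05, and no other test of the pairs was run. The gap, cytosolic minus mitochondrial change, was widest for cysteine, at -1.28 (SE 0.03), and for serine, at -1.24 (SE 0.23). It was -1.10 for phenylalanine, -1.08 for proline, -1.07 for alanine and -1.04 for threonine, and -0.93 to -0.88 for isoleucine, leucine and valine. It was smaller for tyrosine (-0.44), tryptophan (-0.43), histidine (-0.40), asparagine (-0.35) and glutamate (-0.32), and smallest for arginine, at -0.14 (SE 0.10). Every mitochondrial partner was dimmer than its cytosolic one, and the part of signal level in the gaps was not tested. These values rest on the brightest probe set of each gene. Only 20 of the 34 genes had another probe set above the filter. The other genes, among them both arginine genes, kept the same probe set in the alternatives that follow. With the next brightest probe sets the cytosolic change was the lower in 13 of 15 pairs, 12 of them without overlap. The gap then turned to 0.29 for cysteine and 0.09 for phenylalanine and stood at -0.02 for tyrosine. With the mean of a gene's probe sets it was the lower in 15 of 15, 13 of them without overlap, and the gap for cysteine was -0.50.

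**Figure D3:**
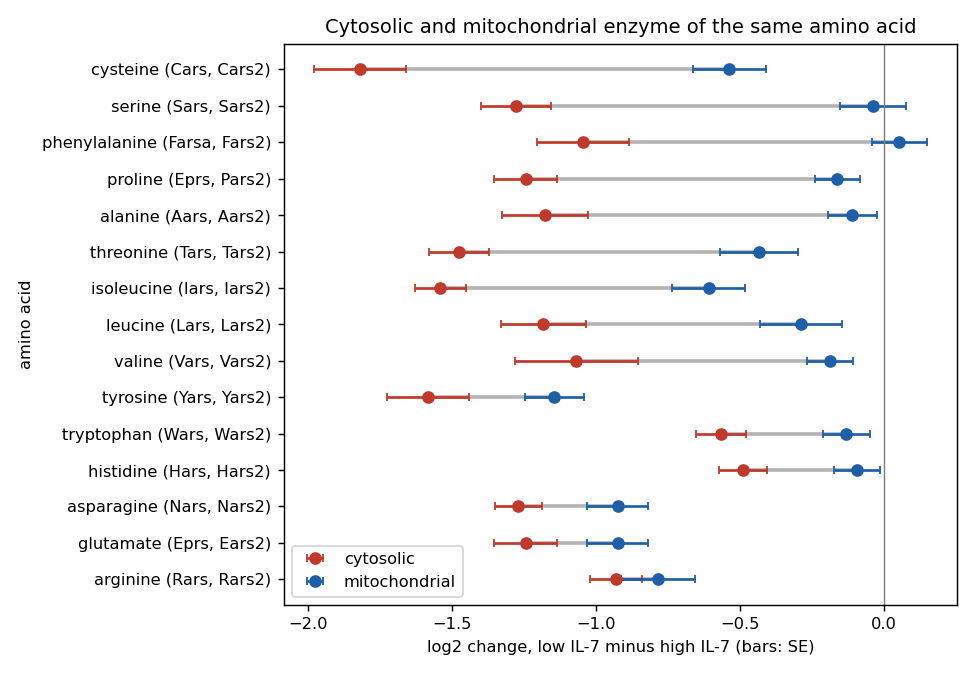
Log2 change in low IL-7 minus high IL-7 of the cytosolic (red) and mitochondrial (blue) enzyme of each of 15 amino acids, each by its brightest probe set, with the standard error as bars and a grey line joining the pair, sorted by the gap. The red point lies left of the blue one in all 15 rows, from a gap of -1.28 for cysteine to -0.14 for arginine.

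The +IRF4 arrays were compared with the high IL-7 arrays, which leaves the cytokine the same. No synthetase was called in limma, 0 of 18 cytosolic and 0 of 16 mitochondrial, against 0.951% of all genes called lower and 1.89% called higher. At an unadjusted p under 0.05, 3 cytosolic and 4 mitochondrial genes were lower and 0 higher, against 8.19% of all genes lower and 6.88% higher. Values leaned slightly down, with medians of -0.17 over the cytosolic genes (range -0.44 to 0.14, 16 of 18 below 0; -0.257 without +IRF4 replicate 1 and -0.0930 without high IL-7 replicate 1) and -0.15 over the mitochondrial genes (range -0.43 to 0.11, 13 of 16 below 0), against -0.01 for all genes tested. The +IRF4 arrays lay wholly below the high IL-7 arrays for 12 of the 34 genes, 4 cytosolic and 8 mitochondrial, against 11.0% of all genes tested, and wholly above them for Sars2, against 10.0%. This comparison shares its high IL-7 arrays with the previous one, so a high reading in those arrays lowers both.

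The lowest values with IRF4 belonged to Cars, at -0.44 (SE 0.16, limma adjusted p = 0.217), and Tars2, at -0.43 (SE 0.14, limma adjusted p = 0.151). Tars2, the mitochondrial threonine enzyme, had 9.69, 9.22 and 9.40 in low IL-7, 9.46, 9.39 and 9.47 in +IRF4, and 10.10, 9.68 and 9.83 in high IL-7. Its low IL-7 and +IRF4 arrays overlapped. The +IRF4 arrays all lay below high IL-7, while those of low IL-7 overlapped with high IL-7. Nars2 had the smallest adjusted p of the set in limma, 0.107, at a change of -0.37 (SE 0.11). Between the partners of a pair, the cytosolic change was the lower in 7 and the mitochondrial in 8 of 15, and 12 pairs overlapped between the groups. With array weights, 5 cytosolic and 5 mitochondrial genes were called lower in this comparison. That setting called 3324 of the 12828 genes tested, lower and higher together, against 365 in the main fit. The genes called lower were not counted apart in that setting, so the synthetase calls have no like share beside them. They are not read as a fall particular to these genes.

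Low IL-7 was set against the +IRF4 arrays as well, and the falls seen against high IL-7 largely recurred. Of 18 cytosolic genes 17 were called lower, all but Qars, and 8 of them by at least 2-fold, against 2.98% of all genes tested. Their median was -0.96, with a range of -1.43 to 0.03 over the 18. Of 16 mitochondrial genes 6 were called lower, Yars2, Ears2, Mars2, Nars2, Rars2 and Iars2, with a median of -0.20 and a range of -1.04 to 0.05. None was called higher in either set, and over all genes 18.6% were called lower and 17.7% higher, with a median near 0. Every low IL-7 array lay below every +IRF4 array for 17 cytosolic and 9 mitochondrial genes, against 24.6% of all genes tested. The low IL-7 arrays are the same in both comparisons, so the counts are not independent.

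The 5 largest cytosolic falls against the +IRF4 arrays were 1.43 for Yars (SE 0.14), 1.38 for Cars (SE 0.16), 1.36 for Iars (SE 0.09), 1.28 for Tars (SE 0.10) and 1.21 for Vars (SE 0.21, limma adjusted p = 0.00131). Among the mitochondrial genes Yars2 fell by 1.04 (SE 0.10, limma adjusted p = 2.94e-05), Ears2 by 0.67, Mars2 by 0.60, Nars2 by 0.55 and Rars2 by 0.50 (limma adjusted p = 0.0117). The dimmer probe set of Mars2 went the other way in this comparison, at 0.43. Iars2 fell by 0.36 (limma adjusted p = 0.0487), a call lost when replicate 2 or 3 of low IL-7, 1 or 2 of +IRF4, or 2 or 3 of high IL-7 was left out. In limma, Cars2 at -0.34 (adjusted p = 0.0614) and Tars2 at -0.00 (adjusted p = 0.993) were not called. The cytosolic partner was again the lower in 15 of 15 pairs, 13 of them without overlap, and the leucine and tyrosine pairs overlapped.

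Per array, the median over the cytosolic genes relative to their high IL-7 means was -1.0, -1.28 and -1.23 in low IL-7, -0.03, -0.22 and -0.23 in +IRF4, and 0.08, -0.06 and -0.06 in high IL-7. The median over the mitochondrial genes was -0.28, -0.44 and -0.33 in low IL-7, -0.16, -0.12 and -0.17 in +IRF4, and 0.06, -0.04 and -0.03 in high IL-7. The cytosolic median thus lay below the mitochondrial median by 0.72 to 0.90 in each low IL-7 array, and the 2 medians were within 0.13 of each other in the other 6 arrays. In the high IL-7 arrays that closeness is partly built in, since each gene was taken relative to its mean there. In bulk RNA, fewer cells of a type and less RNA per cell cannot be told apart.

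Genes that act around the synthetases were read from lists of related enzymes. In low IL-7 against high IL-7, 19.6% of all genes tested were called lower and 17.8% higher. Of 9 synthetase-related and tRNA-trimming genes tested, 7 fell in low IL-7 against high IL-7, with a median of -0.90. Xpot, the export receptor for transfer RNA, fell by 1.38 (SE 0.09), Elac2, which trims the 3 prime end of transfer RNA, by 0.98 (SE 0.10), Pstk, a kinase of the selenocysteine pathway, by 0.92 (SE 0.09), and Trnt1, which adds the terminal CCA, by 0.83 (SE 0.07). Sepsecs, the last enzyme of that selenocysteine route, stood at 0.04, and Elac1 at 0.03. Of 13 genes for amidation, formylation and modification of mitochondrial transfer RNA, 10 fell and 1 rose, with a median of -0.45. Pus1, a pseudouridine synthase that also acts on cytosolic RNA, fell by 1.55 (SE 0.09), Trmt10c, a subunit of mitochondrial RNase P, by 0.80 (SE 0.12), and Trmt5, a methyltransferase, by 0.76 (SE 0.11).

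Qrsl1, a subunit of the amidotransferase that makes glutamine on its mitochondrial transfer RNA, was the member that rose. It had 11.16, 11.16 and 11.24 in low IL-7, 10.56, 10.50 and 10.41 in +IRF4, and 10.46, 10.72 and 10.80 in high IL-7. The low IL-7 arrays were above all others, and Qrsl1 rose by 0.53 (SE 0.10, limma adjusted p = 0.00136) by a probe set that can match several transcripts, while its other probe set stood at 0.40. The genes for the other subunits, Gatb and Gatc, fell by 0.57 (SE 0.07) and 0.24 (SE 0.08).

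Elongation factors receive the charged transfer RNA. Counts in low IL-7 stand against 19.6% of all genes tested called lower and 17.8% called higher. The list of cytosolic elongation factors and the kinase Eef2k had a median of -0.06, that of mitochondrial elongation and initiation factors -0.80, and the difference was not tested. Of the 5 genes tested in the cytosolic list 1 fell and 1 rose: Eef1d, an exchange factor, fell by 0.85 (SE 0.07), and Eef2k, the kinase that inhibits eEF2, rose by 1.01 (SE 0.11). Eef1a1, which carries the charged transfer RNA, stood at -0.01 (SE 0.03), with 14.39, 14.41 and 14.43 in low IL-7, 14.44, 14.38 and 14.41 in +IRF4, and 14.38, 14.44 and 14.44 in high IL-7. Of 6 mitochondrial elongation and initiation factor genes 4 fell: Tufm, the mitochondrial counterpart of eEF1A, by 0.96 (SE 0.13), its exchange factor Tsfm by 0.88 (SE 0.09), and Gfm1 and Gfm2, which act in translocation and in ribosome recycling, by 0.89 (SE 0.08) and 0.72 (SE 0.09). None of the genes in these 4 lists or in the scaffold list was called with IRF4 against high IL-7 in limma. At an unadjusted p under 0.05 the number of genes lower was 1 in the synthetase-related list, 3 in the transfer RNA modification list, 1 among the mitochondrial factors and 0 in the other lists, against 8.19% of all genes tested.

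Known regulators of these genes were measured beside them. Of 24 genes of ATF4 and the amino acid response 16 fell in low IL-7 and 1 rose, with a median of -1.17. Among all genes tested, 19.6% were called lower and 17.8% higher. Atf4 itself had 11.33, 11.28 and 11.16 in low IL-7, 12.46, 12.08 and 12.09 in +IRF4, and 12.57, 12.26 and 12.32 in high IL-7, a fall of 1.13 (SE 0.11, limma adjusted p = 2.91e-05). Another bright Atf4 probe set stood at -0.49. Asns, asparagine synthetase, which makes the amino acid and is not a transfer RNA synthetase, had 9.04, 9.04 and 9.16 in low IL-7, 11.89, 11.12 and 10.82 in +IRF4, and 11.96, 11.68 and 11.77 in high IL-7. Asns fell by 2.72 (SE 0.22). Of the mitochondrial enzymes of folate metabolism, Shmt2 fell by 2.04 (SE 0.14) and Mthfd2 fell by 1.40 (SE 0.11), and Slc7a1, a transporter of basic amino acids, fell by 1.89 (SE 0.15). Eif2ak3, which encodes a kinase upstream of Atf4, rose by 0.57 (SE 0.10) in low IL-7 and by 0.55 (SE 0.10) with IRF4, both against the same high IL-7 arrays. With IRF4, 0 of the 24 genes were called lower and 1 higher, against 0.951% and 1.89% of all genes tested. At an unadjusted p under 0.05 in limma, 7 were lower and 1 higher with IRF4, against 8.19% and 6.88%. Of the 24 changes with IRF4, 23 lay below 0, with a median of -0.20.

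Of 10 genes of the MYC family and of mitochondrial biogenesis, 6 fell in low IL-7 and 0 rose, against 19.6% and 17.8% of all genes tested. Myc had 9.05, 9.43 and 8.98 in low IL-7, 11.53, 11.31 and 11.43 in +IRF4, and 12.16, 11.44 and 11.82 in high IL-7, a fall of 2.66 (SE 0.17, limma adjusted p = 1.95e-06). With IRF4 it stood at -0.39 (adjusted p = 0.331), and those arrays overlapped with high IL-7. Pprc1 and Ppargc1b, coactivators of mitochondrial biogenesis, fell by 1.86 (SE 0.12) and 1.73 (SE 0.11), and Tfam, the mitochondrial transcription factor, by 0.51 (SE 0.10). Nrf1 (-0.15, SE 0.09) and Gabpa (-0.04, SE 0.08), whose products bind the other motifs searched, were not called.

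Mycn was read by 3 probe sets that disagreed. The brightest rose by 4.75 (SE 0.12, limma adjusted p = 2.75e-08) with IRF4 against high IL-7, with 8.19, 8.38 and 8.28 in low IL-7, 12.64, 12.99 and 13.15 in +IRF4, and 8.14, 8.15 and 8.22 in high IL-7. The other 2 stood at -0.11 and -0.06 with IRF4, and at -1.47 and -0.03 in low IL-7, so the rise is given for that probe set and not for Mycn transcript as a whole. Whether that signal came from the cells' own Mycn gene was not tested.

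**Figure D4:**
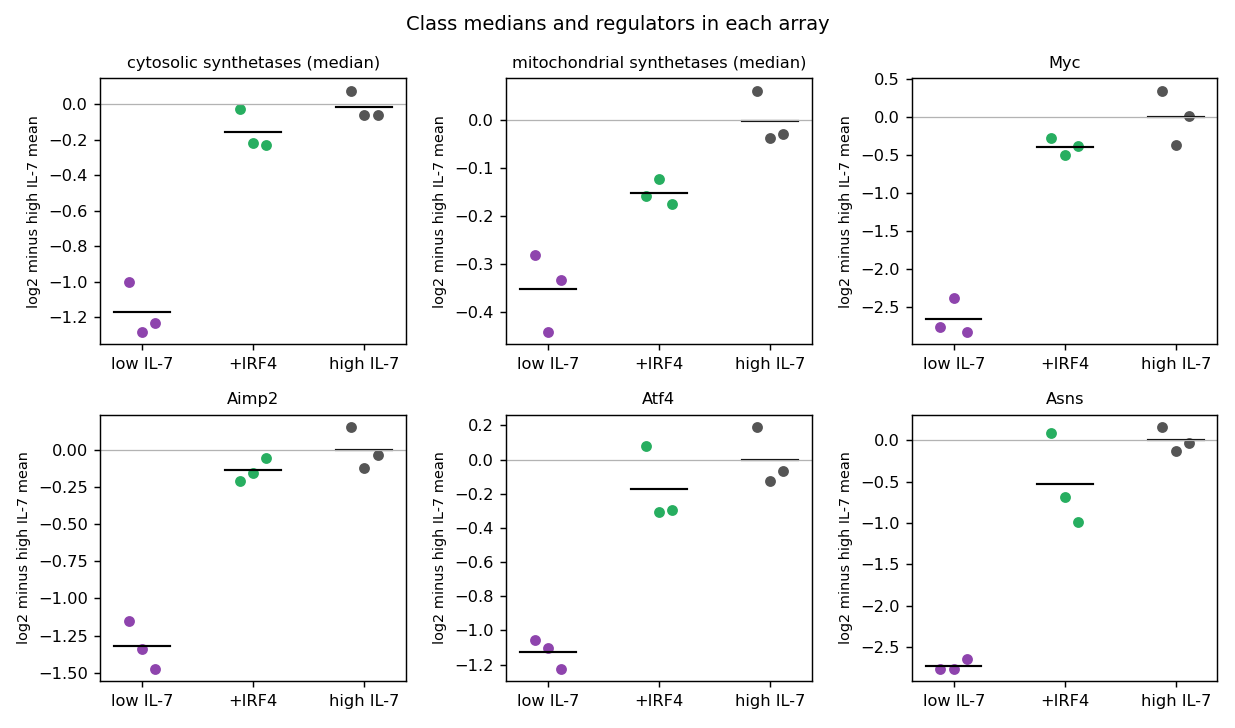
Each array's median over the cytosolic and over the mitochondrial synthetases, and the signals of Myc, Aimp2, Atf4 and Asns, as log2 values minus the high IL-7 mean, with 3 arrays per group as points and the group mean as a bar. Each panel has its own axis range, and in all 6 the low IL-7 points lie below those of both other groups, at -1.28 to -1.0 for the cytosolic median and -0.44 to -0.28 for the mitochondrial one.

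Markers of other cells also moved with the groups. In low IL-7 against high IL-7, 19.6% of all genes tested were called lower and 17.8% higher. Of 11 stromal markers tested (of 13 listed), 4 fell in low IL-7, and their mean signal was 7.73 to 8.77 in low IL-7, 8.09 to 10.4 with IRF4 and 8.77 to 10.9 in high IL-7. Of 5 myeloid markers tested (of 10 listed), 2 rose in low IL-7, Itgam by 2.01 and Fcer1g by 1.49. Csf1r went the other way, at -0.22, Lyz2 stood at 0.16, and neither was called. The mean over the 5 was 8.24 to 8.29 in low IL-7, 7.22 to 7.41 with IRF4 and 7.48 to 7.59 in high IL-7. Of 3 T cell markers tested (of 7 listed) 0 were called, and 1 had an unadjusted p under 0.05 in limma. Of 3 erythroid and megakaryocyte markers tested (of 7 listed) 2 fell. The part of the stromal, myeloid and erythroid differences in the synthetase values was not tested.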

How the data were processed

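Total RNA of 9 samples of pre-B cells was extracted with Trizol and a column, biotin-labelled and hybridised to Affymetrix arrays, per the labels' protocols. Groups and replicate numbers came from the sample titles. The authors deposited 1 table of linear intensity values for 45101 probe sets; the sources used here do not state how these were summarised and scaled. In the platform annotation 34945 probe sets had 1 gene symbol, 932 several and 9160 none, besides 64 controls; those with several or none were left out.

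Values were taken as log2(intensity + 16). Probe sets with a mean at or above the 40th percentile (an intensity of 108.008) were kept, and the brightest stood for its gene. Detection calls were not used. limma 3.58.1 in R 4.3.3 fitted 3 group means over all 9 arrays with a variance trend, and Benjamini-Hochberg adjustment ran over 12828 genes; other probe sets were adjusted over all probe sets. The procedure was tested on simulated data. Within a group, arrays shared at most 2 identical values and were counted separately. Promoters of the synthetases were matched by gene identifier and those of all tested genes by symbol. Only the first listed promoter of each gene was searched. Promoters of the other 9 synthetase genes were not used. Promoter coordinates are those of the RefSeq assembly GRCm38.p6. Python 3.11.15 and matplotlib 3.10.9 were used for the figures.

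Members and gene lists were chosen with earlier results of these data known. Members described array by array were, by rule, the 5 largest called changes of each set in each comparison and the 4 smallest of each set in low IL-7. From each other list, up to 4 genes with the smallest p in low IL-7 were named, with Myc, Mycn, Atf4 and Asns. Tars2, Aimp2, Aimp1, Sepsecs, Elac1, Qrsl1, Gatc, Eef1a1, Eif2ak3, Nrf1, Gabpa, Itgam, Fcer1g, Csf1r and Lyz2 were named after their values were seen. Arrays with the same number deviated together in low and high IL-7 (r of 0.286 to 0.549), but not in the other comparisons (r of -0.380 to -0.0129). Over all comparisons, arrays with different numbers had r of -0.520 to 0.399. Low IL-7 replicate 3 had r of 0.342 with high IL-7 replicate 2, so these values do not settle whether the arrays are paired. The main fit used no pairing. Alternatives changed the pseudocount, filter, normalization, probe set choice, spread model, replicate block and arrays used.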

Additional observations from a re-analysis of the deposited data

How the results depend on the processing

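In low IL-7, 17 cytosolic genes were called lower under each alternative run, except 16 against +IRF4 with the mean of a gene's probe sets (Farsa lost) and 15 against either other group with the next brightest probe sets (Cars and Farsa lost). Against high IL-7 the next brightest probe sets also lost Mars2 and Tars2 and gained Wars2. Genes with only 1 probe set above the filter kept it in both of these settings. Mitochondrial genes called lower against high IL-7 numbered 7 to 8 leaving out single arrays and 11 with array weights, and against +IRF4 they numbered 4 to 7 and 9. The counts of all genes called moved with array weights, which gave 8323 for low against high IL-7 (4801 as reported; 3800 to 5144 leaving out single arrays), 7809 for low IL-7 against +IRF4 (4666; 3572 to 4922) and 3324 for +IRF4 against high IL-7 (365; 195 to 605). For +IRF4 against high IL-7, the count was 222 with the 6 arrays compared and 157 with those and the replicate block. There, cytosolic genes called lower numbered 5 with array weights, 1 with the replicate block over all 9 arrays (Cars; 0 with the block within the 6 arrays compared) and 0 to 2 leaving out single arrays (2 without +IRF4 replicate 1), and mitochondrial genes 5 with array weights. The replicate block ended no synthetase call, and against high IL-7 it added Lars2 in low IL-7, which gave 26 calls. The 2 medians in low against high IL-7 were -1.04 (cytosolic) and -0.27 (mitochondrial) with the mean of a gene's probe sets, and the mitochondrial one was -0.29 with a filter at the 60th percentile, which drops Ears2, and -0.19 with the next brightest probe sets. The mitochondrial median against +IRF4 was -0.26 with median centring and -0.25 to -0.17 leaving out single arrays, and that of +IRF4 against high IL-7 was -0.0752 without the 2 arrays of low 18S signal. Signs turned in uncalled genes in low against high IL-7: Qars was 0.0077 with quantile normalization, 0.078 with the mean of its probe sets, -0.133 to 0.00677 leaving out single arrays (the highest without low IL-7 replicate 2) and 0.132 with its next probe set, Sars2 was 0.0694 without low IL-7 replicate 1 and Hars2 0.0422 with its next probe set. Calls that depended on the probe set were those of Farsa and Tars2, of Mars2, at 0.0341 against high IL-7 and 0.425 (adjusted p = 0.00492) against +IRF4 with the dimmer one and -0.09 against +IRF4 with the mean, and of Cars, at -0.16 and -0.09 with its dimmer one. Rars2 against +IRF4 had an adjusted p of 0.0501 without +IRF4 replicate 2. Why these values moved was not tested beyond what each setting changes. The alternatives on 18S signal, on the block within 6 arrays and on the probe sets of pairs were chosen after seeing the data. With 3 arrays per group and no detection calls, changes of dim probe sets are the least certain.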
